A study of Mus musculus with 9 samples.

Results

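The replication-dependent core histone genes are the multicopy genes that encode H2A, H2B, H3 and H4, the proteins around which DNA is wrapped in the nucleosome. They were chosen by symbol, as every gene whose symbol began with Hist, a cluster number and the letter of a core histone class, and linker H1 genes were left out. Of the 21883 genes measured, 64 met this rule, of which 20 were H2A, 19 H2B, 12 H3 and 13 H4 genes. The genes named Hist1, on chromosome 13, were 50 of them, in a stretch of 23 genes, a second stretch of 26 and Hist1h2al, which lies apart from both (from position 51202688), the Hist2 cluster on chromosome 3 held 10, the Hist3 cluster on chromosome 11 held 3, and Hist4h4 stood alone on chromosome 6. By annotation 62 were protein coding and 2, Hist1h2aj and Hist3h2bb-ps, were pseudogenes.

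These genes are transcribed mainly in S phase, when new DNA needs new nucleosomes. Most of their mRNAs have no poly(A) tail and end instead in a conserved stem-loop, which the stem-loop binding protein Slbp holds through processing, export and translation, and which lets the mRNA be destroyed when replication stops. Genes of several classes lie side by side in the clusters, and H2A and H2B genes often stand as divergent neighbours with a common promoter region. Many copies encode the same protein with almost the same letters, so that their levels are usually read together.

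RNA was measured in invariant natural killer T (iNKT) cells, T cells with a semi-invariant receptor for lipids on CD1d, which pass through numbered stages in the thymus. The 9 libraries formed 3 groups of 3: wild-type (WT) cells of stage 2, WT cells of stage 3, which carry NK1.1 and are the mature form, and Med23-deficient cells of stage 2 (KO in the plots). All mice were C57BL/6. The WT mice were 6 weeks old, and the labels give no age for the Med23-deficient mice, in which floxed Med23, a subunit of the Mediator complex, was deleted by Cre under the Cd4 promoter, that is from the double-positive thymocyte stage and in all T cells that follow. Cells were sorted by flow cytometry, with stages set by CD24, CD44 and NK1.1. The libraries came from total RNA with a stranded kit for small inputs, so that the reads were not limited to polyadenylated RNA. The methods speak of independent experiments, but nothing in the labels ties libraries to separate mice or experiments, and p-values measure the spread between these libraries, which may be technical.

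Levels are FPKM, fragment counts scaled by transcript length and library total, as deposited, and the read depth is unknown. Between 15584 and 17333 genes were above 0 in each library, and the single gene model Gm23935 took 62.2 to 71.9% of the summed FPKM. Med23 RNA was at 3.6 to 4.8 FPKM in the Med23-deficient libraries, 5.15 to 6.74 in WT stage 2 and 4.44 to 7.14 in WT stage 3, and a level over the whole gene does not show whether the floxed exons were missing. T cell genes of the iNKT list (Zbtb16, Cd3e, Cd3g, Trbc1, Trbc2, Cd44 and Il2rb) summed to 964.9 to 1152 FPKM in every library. The stage 3 list (Klrb1c, Tbx21, Il2rb, Klrd1, Klrk1 and Nkg7) summed to 668.0 to 777.4 FPKM in WT stage 3 and 172.4 to 255.5 in the other libraries. Among the core histone genes themselves, WT stage 2 replicate 2 held the lowest value of its group for 38 of the 59 members with a group mean of at least 1 FPKM, and replicate 1 the highest for 28.

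The sequence that defines these mRNAs was searched in the transcripts of GENCODE vM21 (GRCm38), which held 62 of the 64 members; Hist1h2bh and Hist1h2bm had no match by identifier. The search asked for a stem of 6 bases and a loop of 4, anywhere in the transcript, with no mismatch in the stem. The first arm had to read GGYYYT and the loop TTYH, where Y is C or T and H is A, C or T. The pattern thus set part of the letters in advance. It found the stem-loop in 38 of 62 members (61.3%), against 50 of all 21901 protein-coding genes (0.228%), and 17 of the 24 members without it had annotated transcripts that ended under 40 bases after the stop codon. Where it was found it began 21 to 58 bases after the stop codon, with a median of 32. It is shown because it is the mark of the replication-dependent class and because its letters split by histone class. The capitals mark the paired stem arms and the lower case letters the loop, in DNA letters.
H2A, H2B and H3, 21 genes including Hist1h2ae and Hist1h2bg: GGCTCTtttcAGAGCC
H2B and H3, 5 genes including Hist1h2bb and Hist1h3e: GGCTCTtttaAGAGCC
H2A, Hist2h2ac: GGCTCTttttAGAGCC
H4, 7 genes including Hist1h4d, Hist1h4c and Hist1h4h: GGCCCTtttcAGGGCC
H4, 2 genes, Hist1h4i and Hist2h4: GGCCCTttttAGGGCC
H4, 2 genes, Hist1h4j and Hist1h4b: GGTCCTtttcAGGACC
The 11 H4 genes with a match used stems that none of the 27 matched H2A, H2B and H3 genes had.

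RefSeq promoter windows (GRCm38.p6, 250 bases before to 50 after the start) were matched to 56 of the 64 members by name and by a nearby start. The largest distance found between the start of a window and the one in the table was 99 bases. In these windows 3 short motifs were searched on both strands. The octamer ATTTGCAT, bound by Oct factors such as Pou2f1, was in 7 of 18 H2A and 6 of 16 H2B windows and in none of the 10 H3 and 12 H4 windows, against 1.74% of all 32851 windows in the table. CCAAT was in every H2A, H2B and H3 window and in 3 of 12 H4 windows, against 37.4% of all windows. TATAAA was in 31 of 56 member windows, against 13.6% of all. H2A and H2B neighbours share bases of their windows, so these counts are not independent. A match is a description of the letters and not a binding site. The windows below belong to genes on which the comparisons turn: Hist1h2bg (chr13:23571150-23571449, plus strand), whose window overlaps that of its divergent neighbour Hist1h2ae, Hist1h2bn (chr13:21753826-21754125, plus strand), the neighbour of Hist1h2ak, Hist1h3d (chr13:23575513-23575812, plus strand) and Hist1h4d (chr13:23581318-23581617, plus strand), the most abundant H4 gene. Capitals mark the octamer, TATAAA and CCAAT on either strand.
Hist1h2bg: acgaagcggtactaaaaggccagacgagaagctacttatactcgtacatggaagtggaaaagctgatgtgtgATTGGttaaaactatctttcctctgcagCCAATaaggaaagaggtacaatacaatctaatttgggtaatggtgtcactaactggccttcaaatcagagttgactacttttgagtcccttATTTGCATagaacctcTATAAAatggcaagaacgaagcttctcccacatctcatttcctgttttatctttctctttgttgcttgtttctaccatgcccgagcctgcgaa
Hist1h2bn: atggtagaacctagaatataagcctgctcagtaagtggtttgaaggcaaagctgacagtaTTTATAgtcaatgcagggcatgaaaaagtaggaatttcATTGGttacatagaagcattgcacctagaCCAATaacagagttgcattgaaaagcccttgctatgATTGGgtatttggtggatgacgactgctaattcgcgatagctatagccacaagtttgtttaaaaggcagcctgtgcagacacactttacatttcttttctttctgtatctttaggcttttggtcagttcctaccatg
Hist1h3d: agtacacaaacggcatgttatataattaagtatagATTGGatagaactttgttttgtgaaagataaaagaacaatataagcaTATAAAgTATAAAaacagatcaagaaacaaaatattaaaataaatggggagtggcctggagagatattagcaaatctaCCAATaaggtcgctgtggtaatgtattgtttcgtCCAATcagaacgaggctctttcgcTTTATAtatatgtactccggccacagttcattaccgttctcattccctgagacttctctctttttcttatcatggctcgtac
Hist1h4d: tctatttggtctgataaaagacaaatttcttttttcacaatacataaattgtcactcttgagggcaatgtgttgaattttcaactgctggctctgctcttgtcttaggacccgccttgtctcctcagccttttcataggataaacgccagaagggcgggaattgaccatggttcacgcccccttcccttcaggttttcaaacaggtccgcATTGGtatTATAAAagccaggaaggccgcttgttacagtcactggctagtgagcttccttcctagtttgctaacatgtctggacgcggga
The window of Hist1h2bg holds all 3 motifs, the windows of Hist1h2bn, Hist1h3d and Hist1h4d hold TATAAA and CCAAT.

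Because the copies are so alike, the share of each transcript that is its own was counted over every window of 75 bases. In the median H2A gene 32.0% of windows occurred in no other annotated gene, in H2B 50.2%, in H3 41.0% and in H4 75.4%. At least 50% of windows were shared with 2 or more other annotated genes in 24 of 62 members. This counts gene models and not loci, so models that overlap at the same locus count as other genes. Reads that hit more than 2 loci were left out upstream, and the windows this concerns were not counted. Hist1h4d (96.3% own windows), Hist1h3d (77.9%) and Hist1h2ak (73.0%) had mostly windows of their own, Hist1h2bg (52.6%) and Hist1h2bn (27.7%) fewer, and Hist2h2aa2 had none. The 5 pairs with the same coding sequence (Hist2h2aa1 and Hist2h2aa2, Hist1h2ao and Hist1h2ap, Hist1h2bq and Hist1h2br, Hist2h3c1 and Hist2h3c2, Hist1h4m and Hist1h4n) cannot be told apart in their coding part, and the split of reads between their partners is uncertain.

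Summed over the 64 genes, core histone RNA was highest in WT stage 2, lower in WT stage 3 and lowest in Med23-deficient stage 2 cells. The WT stage 2 libraries held 2443, 1776 and 2158 FPKM, the WT stage 3 libraries 1317, 1495 and 1197, and the Med23-deficient libraries 964.7, 1042 and 835.1. No library of one group reached into the range of another. The Med23-deficient mean of 947.2 ± 104.5 (SD, n = 3) was 44.55% of the WT stage 2 mean of 2126 ± 334.3 and 70.9% of the WT stage 3 mean of 1336 ± 149.9. No test was made of these sums, and in bulk RNA fewer dividing cells and less histone RNA per cell cannot be told apart. Without Gm23935 the core histones made up 0.3715 to 0.5014% of the summed FPKM in WT stage 2, 0.2229 to 0.3142% in WT stage 3 and 0.1515 to 0.2323% in Med23-deficient cells.

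**Figure D1:**
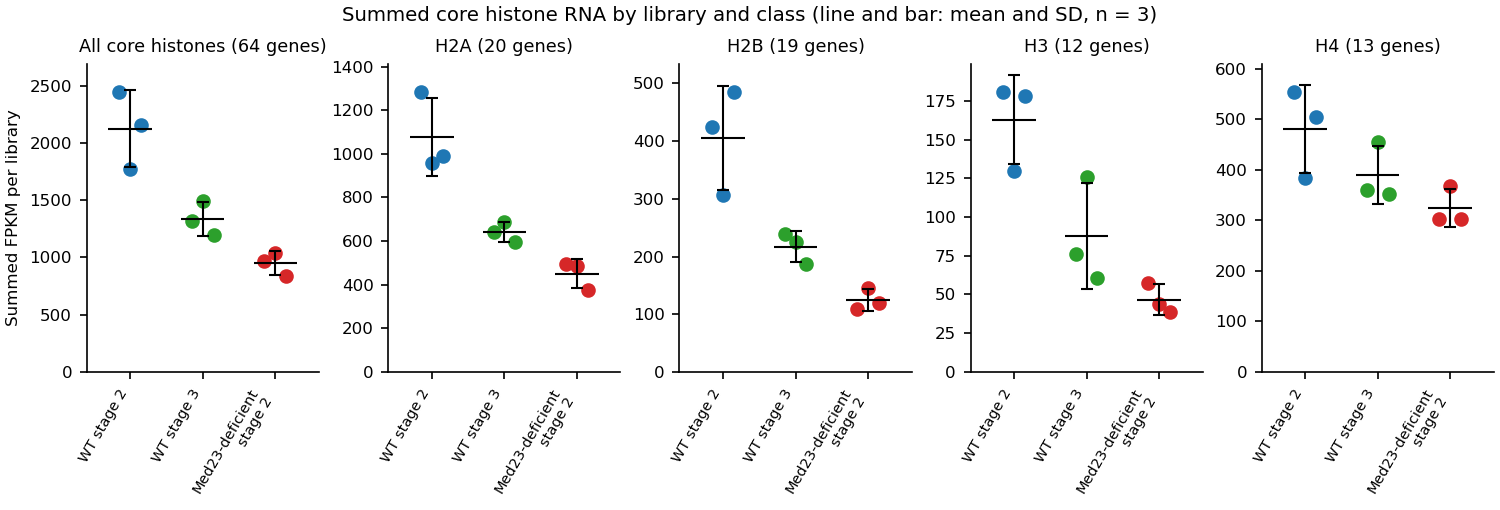
Summed FPKM (y axis, linear from 0, a separate scale in each panel) of all 64 core histone genes and of each histone class in each library, with points for libraries and line and bar for the mean and SD of 3 libraries. All 3 Med23-deficient sums of core histones, 835.1 to 1042, lie below the 3 WT stage 3 sums, 1197 to 1495, and these below the 3 WT stage 2 sums, 1776 to 2443.

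The classes did not fall by equal amounts. H2A carried the most RNA per length, at 1283, 956.5 and 989.1 FPKM in WT stage 2, 642.5, 686.8 and 595.6 in WT stage 3 and 495.0, 483.5 and 374.4 in Med23-deficient cells. H2B went from 425.2, 306.5 and 484.9 through 238.4, 226.0 and 187.5 to 109.8, 145.6 and 119.5 FPKM in the same order. H3 gave 180.7, 129.5 and 178.4, then 76.12, 126.2 and 60.85, then 57.69, 43.81 and 38.53 FPKM. In these 3 classes each Med23-deficient library lay below every WT library of either stage, and the mean was 41.9% of WT stage 2 for H2A, 30.8% for H2B and 28.7% for H3. H4 gave 553.8, 383.7 and 505.5 FPKM in WT stage 2, 360.5, 456.0 and 353.0 in WT stage 3 and 302.2, 368.9 and 302.6 in Med23-deficient cells. Here the Med23-deficient mean was 67.5% of WT stage 2, with all 3 libraries below the WT stage 2 range but 1 of them inside the WT stage 3 range. The share of H4 in the core histone sum was therefore 22.6 ± 0.917% in WT stage 2, 29.1 ± 1.60% in WT stage 3 and 34.3 ± 2.63% in Med23-deficient cells (SD, n = 3), with no overlap between groups. The difference between classes was not tested.

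By chromosome cluster, the Hist1 genes summed to 1567, 1063 and 1430 FPKM in WT stage 2, 695.1, 977.1 and 592.3 in WT stage 3 and 548.9, 541.8 and 451.4 in Med23-deficient cells, whose mean was 37.99% of WT stage 2. The Hist2 genes, few but abundant, summed to 863.1, 694.5 and 713.6, then 607.8, 505.5 and 590.4, then 407.1, 489.2 and 367.8 FPKM, and the Med23-deficient mean was 55.7% of WT stage 2. The 3 Hist3 genes stood at 10.3 ± 2.35, 11.3 ± 1.35 and 9.01 ± 3.81 FPKM (SD, n = 3), so that the groups overlapped. Hist4h4 stood at 4.88 ± 1.61, 2.5 ± 1.03 and 2.81 ± 0.833 FPKM, also with overlap between Med23-deficient and WT stage 2 libraries.

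**Figure D2:**
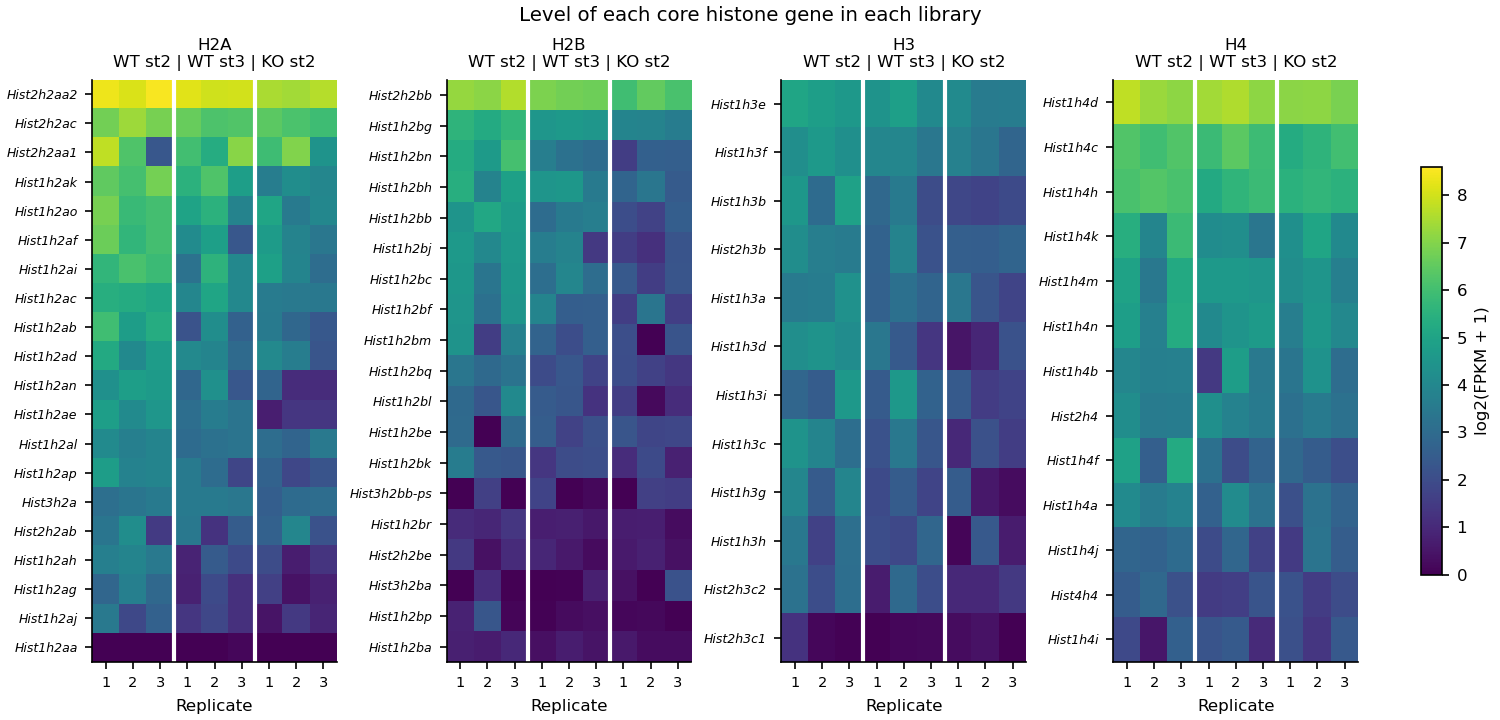
Level of each of the 64 members (rows, ordered by mean within each class) in each of the 9 libraries (columns, replicates 1 to 3 of each group, with Med23-deficient stage 2 labelled KO st2), as log2(FPKM + 1) in colour from 0 to 8.6. Hist2h2aa2 among H2A, Hist2h2bb among H2B and Hist1h4d among H4 are the brightest rows in all 3 groups, and Hist1h2aa is at 0 in all but 1 library.

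Levels differed widely between members. Hist2h2aa2, an H2A gene of the Hist2 cluster, was the most abundant member, at 330.7, 278.4 and 368.8 FPKM in WT stage 2, 293.2, 249.8 and 255.2 in WT stage 3 and 179.8, 169.6 and 199.5 in Med23-deficient cells. The Med23-deficient libraries lay below both WT groups, with a log2 difference from WT stage 2 of -0.82 ± 0.13 (SE) that stayed short of a fold of 2 (adjusted p = 0.097). Its partner Hist2h2aa1 scattered from 3.99 to 218.4 FPKM within WT stage 2 alone, and differed by 0.34 ± 1.45. Summing the pair removes only the split between its partners. Of the windows of Hist2h2aa2 100%, and of Hist2h2aa1 88.7%, occurred in 2 or more other annotated genes, which may include overlapping models. Summed, the pair gave 549.1, 352.3 and 372.8 FPKM in WT stage 2, 355.9, 288.9 and 387.5 in WT stage 3 and 240.3, 295.2 and 219.8 in Med23-deficient cells, again with every Med23-deficient library below WT stage 2. Of the 5 pairs with the same coding sequence, 4 were so ordered after summing, and Hist1h4m with Hist1h4n was the exception. Hist2h2ac, second in mean level among H2A genes, had 108.1, 160.3 and 113.1 FPKM in WT stage 2, 96.74, 72.59 and 76.74 in WT stage 3 and 84.90, 70.25 and 60.02 in Med23-deficient cells, and was below WT stage 2 in all libraries of both other groups. Across the 56 members with a mean of at least 1 FPKM over the 9 libraries, the group means were in the order WT stage 2, WT stage 3, Med23-deficient for 49. This order of means used no threshold, and its share over all genes was not counted.

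The first comparison set Med23-deficient stage 2 cells beside WT stage 2 cells. The labels do not say whether the Med23-deficient and WT libraries were prepared together, so genotype and any such difference cannot be told apart. Each of 63 testable core histone genes (Hist1h2aa was at 0 in all 6 libraries) was tested with limma on log2(FPKM + 1) among 20674 genes. A gene was counted as lower when it fell by at least a fold of 2 with an unadjusted p of at most 0.05, the thresholds of the study, and more strictly when its adjusted p was at most 0.05 over all genes. By the first rule 35 members fell and none rose, where 1.32% of all genes fell and 0.798% rose. Genes near 0 can hardly pass this rule. With a minimum mean of 1 FPKM over the libraries compared, 37 of 57 members fell, where 2.24% of 11750 genes did. By the adjusted p 5 members fell, where 0.145% of all genes did. The log2 difference was below 0 for 59 of 63, with a median of -1.36 against -0.01 over all genes tested. The adjusted p values depend on the fit: leaving out any 1 of the 6 libraries left 0 or 1 member by this rule, a Ballgown-style model left 0, and a minimum mean of 1 FPKM gave 20. By the fold rule 24 members fell in the Ballgown-style model and 27 to 38 when 1 library was left out. In 42 members every Med23-deficient library lay below every WT stage 2 library, which 8.37% of all genes did. Among 11775 genes with a mean of at least 1 FPKM over the 9 libraries, 1386 did.

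Among H2A genes 13 of 19 fell, with a median log2 difference of -1.90. Hist1h2ae, at 27.30, 16.15 and 21.83 FPKM in WT stage 2, was at 0.66, 1.58 and 1.57 FPKM in Med23-deficient cells, a log2 change of -3.33 ± 0.27 (SE; adjusted p = 0.030). Hist1h2ak fell from 90.34, 65.50 and 110.8 FPKM to 11.40, 17.37 and 14.55 (-2.53 ± 0.23; adjusted p = 0.030). Hist1h2ac fell from 41.47, 38.45 and 32.79 FPKM to 11.02, 10.15 and 9.80 (-1.76 ± 0.12; adjusted p = 0.017). In these 3 genes the groups were far apart beside the spread within each. Hist1h2an fell from 18.86, 27.02 and 24.99 FPKM to 5.78, 1.12 and 1.14 (-2.96 ± 0.48; adjusted p = 0.10). Hist1h2ab, Hist1h2af and Hist1h2ah fell by 2.44, 2.13 and 2.36 on the log2 scale, each without overlap. The H2A genes of Hist2 and Hist3 did not pass the fold rule: Hist2h2ab was at 9.09, 17.69 and 1.75 FPKM in WT stage 2 and 5.40, 14.59 and 3.53 in Med23-deficient cells, and Hist3h2a at 7.79, 9.21 and 10.70 against 4.88, 6.98 and 7.34 FPKM.

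Of the 19 H2B genes 11 fell, with a median of -1.51. Hist1h2bb fell from 21.00, 34.76 and 25.31 FPKM to 3.10, 2.21 and 4.96 (log2 change -2.68 ± 0.29 SE; adjusted p = 0.042). Hist1h2bg fell from 47.82, 37.69 and 50.89 FPKM to 13.77, 13.44 and 11.19 (-1.75 ± 0.15; adjusted p = 0.030). Hist1h2bn fell from 38.61, 24.73 and 65.15 FPKM to 1.93, 5.24 and 5.05, the steepest change of the class (-3.08 ± 0.44; adjusted p = 0.077). Each of these genes was separated without overlap, as were Hist1h2bj (-2.76 ± 0.32; adjusted p = 0.051), Hist1h2bc (-2.10 ± 0.41; adjusted p = 0.16) and Hist1h2bh (-1.84 ± 0.44; adjusted p = 0.22). Hist2h2bb, the most abundant H2B gene, fell from 149.98, 138.0 and 194.8 FPKM to 61.71, 91.64 and 68.29 (-1.12 ± 0.19; adjusted p = 0.12). Hist1h2be had 6.77, 0.01 and 6.77 FPKM in WT stage 2 against 3.87, 2.45 and 2.58 in Med23-deficient cells (-0.01 ± 0.83), with WT stage 2 replicate 2 far below its group. Hist2h2be, Hist3h2ba and Hist3h2bb-ps were at or below 3.48 FPKM in every library, and their groups overlapped; the pseudogene Hist3h2bb-ps was the highest of the class, at 0.52 ± 0.64.

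Of the 12 H3 genes 9 fell, with a median of -1.54 and no member above 0. Hist1h3d fell from 18.20, 20.53 and 17.35 FPKM to 0.39, 0.90 and 3.46 (log2 change -3.11 ± 0.43 SE; adjusted p = 0.074). Hist1h3e and Hist1h3f, the most abundant H3 genes, fell less, from 32.55, 27.38 and 22.89 to 16.22, 10.92 and 11.35 FPKM and from 18.15, 23.33 and 18.41 to 12.66, 9.48 and 5.91 FPKM (-1.06 ± 0.20 and -1.06 ± 0.26). Hist1h3b fell from 22.64, 7.10 and 28.99 FPKM to 2.57, 2.32 and 2.79 (-2.33 ± 0.49; adjusted p = 0.18), and in WT stage 2 it was the replicate 2 library that came nearest to the Med23-deficient ones. Hist1h3g fell by 2.34 with overlap, since replicate 2 of WT stage 2 (4.53 FPKM) lay below replicate 1 of the Med23-deficient group (4.61). Hist2h3b and Hist2h3c2 fell by 1.18 and 1.67, without overlap. Hist1h3h (-1.69 ± 0.74) and Hist1h3i (-1.41 ± 0.58) missed the p threshold, and Hist2h3c1 was at or below 1.42 FPKM in every library.

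Of the 13 H4 genes 2 fell, with a median of -0.53. The most abundant, Hist1h4d, was at 219.3, 156.9 and 141.3 FPKM in WT stage 2 and 136.0, 138.7 and 116.3 in Med23-deficient cells, without overlap but with a log2 difference of only -0.38 ± 0.18 (SE; adjusted p = 0.58). Hist1h4h was at 69.51, 77.78 and 68.35 FPKM against 44.51, 50.13 and 44.72 (-0.62 ± 0.09; adjusted p = 0.082), a small and regular difference. Hist1h4c was at 75.98, 61.11 and 75.80 FPKM against 38.42, 47.75 and 62.19, with overlap. The members that passed the fold rule were Hist1h4a, from 16.26, 10.92 and 12.98 to 3.24, 8.51 and 5.73 FPKM (-1.14 ± 0.32; adjusted p = 0.31), and Hist1h4f, from 29.64, 5.05 and 36.82 to 6.47, 4.67 and 3.16 FPKM (-1.77 ± 0.71; adjusted p = 0.51). Hist1h4f overlapped, again through WT stage 2 replicate 2. Hist1h4i, at 0.45 to 5.23 FPKM, was the 1 H4 gene with a difference above 0 (0.25 ± 0.59). Hist2h4 was at 17.50, 11.04 and 11.33 FPKM in WT stage 2 and 8.01, 10.44 and 8.35 in Med23-deficient cells (-0.50 ± 0.21; adjusted p = 0.53), and Hist4h4 at 4.73, 6.56 and 3.35 against 3.51, 1.89 and 3.04 (-0.61 ± 0.30; adjusted p = 0.59). Whether H4 genes differ from the others in their response was not tested.

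**Figure D3:**
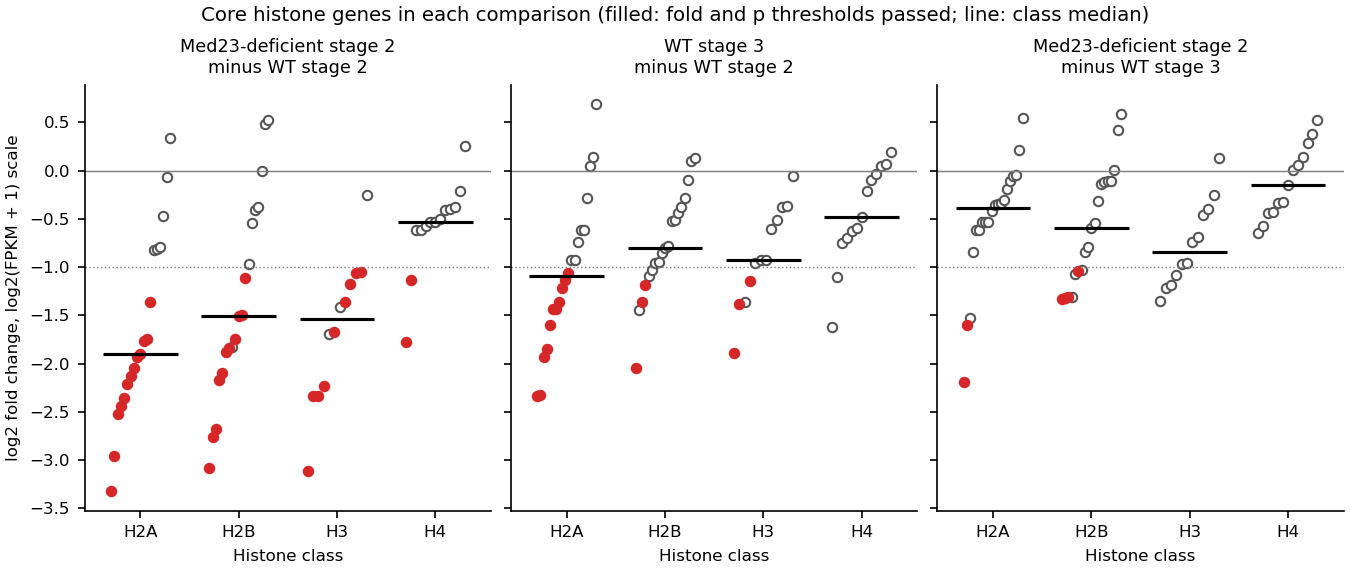
The log2 fold change of every testable member on the log2(FPKM + 1) scale (y axis), by histone class (x axis), in the 3 comparisons, with filled points for members past the fold and p thresholds and a line at the class median. In the first panel the medians are -1.90, -1.51, -1.54 and -0.53 for H2A, H2B, H3 and H4, and 35 points are filled, against 17 and 6 in the other panels.

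By cluster, 32 of 49 Hist1 genes fell (median -1.75), 3 of 10 Hist2 genes (median -0.66; Hist2h2bb, Hist2h3b and Hist2h3c2) and none of the 3 Hist3 genes or Hist4h4. Class and cluster are mixed here, since 11 of the 13 H4 genes lie in Hist1. Within Hist1 alone the medians were -2.09 for H2A, -1.83 for H2B, -1.69 for H3 and -0.53 for H4, and 2 of 11 H4 genes fell against 13 of 14 H2A, 10 of 15 H2B and 7 of 9 H3 genes. The uniqueness of the sequence also moved with class. Members with at least 50% own windows had a median of -0.79 over 31 genes, and the other 30 a median of -1.68. The order was the same within H2A (-0.81 over 7 genes and -1.99 over 12) and within H2B (-0.41 over 9 and -1.70 over 8). The 9 H2B genes included Hist1h2ba, the median gene, Hist2h2be, Hist3h2ba and Hist3h2bb-ps, with means of 0.493, 0.697, 0.626 and 0.96 FPKM. The other 8 included Hist1h2bp and Hist1h2br, at 0.611 and 0.763. The 7 H2A genes included Hist2h2ab, Hist2h2ac and Hist3h2a, and the 12 Hist2h2aa1 and Hist2h2aa2. Uniqueness was thus mixed with level and cluster. Within H3 it was the other way (-2.24 over 5 genes and -1.41 over 7), and within H4 the medians were -0.52 over 10 and -0.54 over 3 genes. The part of shared reads in the class difference was not tested.

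In 14 places an H2A and an H2B gene stood back to back with starts 173 to 306 bases apart, 12 of them on chromosome 13. Both neighbours were below 0 in 12 pairs and both fell in 8. In the pair Hist1h2ak and Hist1h2bn the log2 changes were -2.53 and -3.08, and in Hist1h2ac and Hist1h2bc -1.76 and -2.10. Hist1h2ae changed by -3.33 and its neighbour Hist1h2bg by -1.75, although both lie on the promoter window printed above. Levels could differ widely across such a pair: over the 9 libraries Hist2h2ac averaged 93.6 FPKM and Hist2h2be 0.697.

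**Figure D4:**
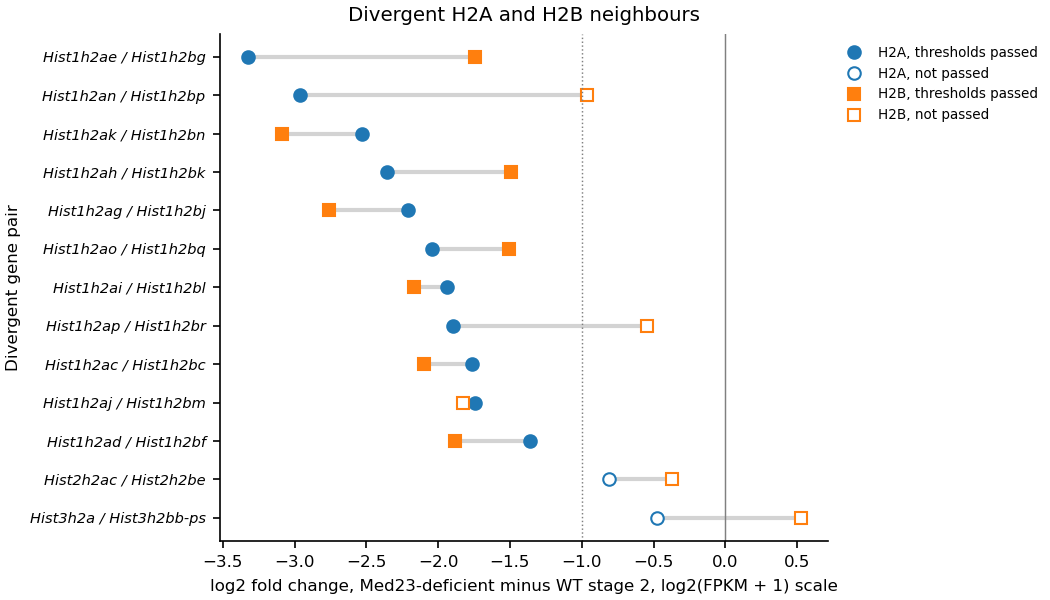
Log2 fold change between Med23-deficient and WT stage 2 cells (x axis, log2(FPKM + 1) scale) of the H2A gene (circle) and the H2B gene (square) of each divergent pair (rows), filled where the fold and p thresholds were passed. The pair of Hist1h2aa and Hist1h2ba is left out because Hist1h2aa was at 0, and in 8 of the 13 rows both symbols are filled.

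The second comparison asked how core histone RNA changes as WT cells go from stage 2 to stage 3. The direction was the same and the size smaller: 17 of 64 members fell by the fold and p rule and none rose, where 1.9% of all 20689 genes fell and 1.7% rose. With a minimum mean of 1 FPKM over the libraries compared, 20 of 56 members fell, where 2.98% of 11781 genes did. The median log2 difference was -0.79, with 56 of 64 below 0, and 26 members were separated without overlap, where 10.4% of all genes were. Among 11778 genes with a mean of at least 1 FPKM over the 9 libraries, 1715 were so separated. A single member, Hist1h2bg, had an adjusted p of at most 0.05, where 0.914% of all genes did. It went from 47.82, 37.69 and 50.89 FPKM to 21.91, 24.30 and 22.13 (-0.96 ± 0.13 SE; adjusted p = 0.034), just short of the fold rule. The fold rule gave 10 members without WT stage 2 replicate 1, 9 without WT stage 3 replicate 3 and 4 in a Ballgown-style model. The adjusted p gave 0 or 1 without any 1 library, and 0 with the replicate number as a block.

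H2A held most of these calls, with 11 of 20 genes, beside 3 of 19 H2B, 3 of 12 H3 and none of 13 H4 genes. Hist1h2af fell from 100.2, 49.07 and 64.50 FPKM to 16.68, 27.63 and 4.09 (log2 change -2.34 ± 0.65 SE; adjusted p = 0.19). Hist1h2ab fell from 61.98, 26.49 and 39.25 FPKM to 3.59, 17.64 and 5.44 (-2.33 ± 0.58; adjusted p = 0.14), and Hist1h2ah from 12.18, 13.72 and 10.10 to 0.81, 4.60 and 2.81 (-1.93 ± 0.42; adjusted p = 0.10). Each was separated from WT stage 2, with a wide spread within stage 3 in which replicate 2 was the highest. The H2B genes that fell were Hist1h2bn (-2.05 ± 0.36), Hist1h2bb (-1.36 ± 0.25) and Hist1h2bq (-1.19 ± 0.23), and the H3 genes were Hist1h3d (-1.89 ± 0.50), Hist1h3g (-1.38 ± 0.46) and Hist1h3c (-1.15 ± 0.46). For H4, Hist1h4d was at 169.1, 188.8 and 140.1 FPKM in stage 3, a log2 difference from stage 2 of -0.04 ± 0.20, and Hist1h4k (-1.11 ± 0.53) and Hist4h4 (-0.75 ± 0.31) did not pass the thresholds. Hist1h3b (-1.36 ± 0.60), Hist1h2bj (-1.45 ± 0.66) and Hist1h4f (-1.63 ± 0.74) differed by more than a fold of 2 without passing the p threshold. The highest differences per class, among members with a mean of at least 1 FPKM, were 0.69 ± 1.39 for Hist2h2aa1, 0.13 ± 0.84 for Hist1h2be, -0.05 ± 0.77 for Hist1h3i and 0.20 ± 0.64 for Hist1h4i, all with overlap.

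The third comparison set Med23-deficient stage 2 cells beside the WT stage 3 cells. Both this comparison and the first use the Med23-deficient libraries, and both the first and the second use the WT stage 2 libraries, so the 3 are not independent. Here 6 of 64 members fell and none rose, where 1.48% of 20846 genes fell and 1.39% rose, and 17 members were separated without overlap, where 6.75% of all genes were. With a minimum mean of 1 FPKM over the libraries compared, 10 of 57 members fell, where 2.56% of 11733 genes did. Among 11773 genes with a mean of at least 1 FPKM over the 9 libraries, 1089 were lower without overlap. The median log2 difference was -0.44. By the adjusted p 2 members fell, where 0.628% of all genes did. Hist1h2ae had 7.70, 11.29 and 8.82 FPKM in WT stage 3 and 0.66, 1.58 and 1.57 in Med23-deficient cells (-2.19 ± 0.26 SE; adjusted p = 0.022). Hist1h2bg had 21.91, 24.30 and 22.13 FPKM in WT stage 3 against 13.77, 13.44 and 11.19 (-0.79 ± 0.11; adjusted p = 0.038), a difference under a fold of 2. Without WT stage 3 replicate 3 the fold rule gave 12 members. Without any 1 library the adjusted p gave 0 or 1, and with the replicate number as a block 0.

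The other members that passed the fold rule in this comparison were Hist1h2ak, from 45.35, 74.72 and 27.13 FPKM in WT stage 3 to 11.40, 17.37 and 14.55 (-1.60 ± 0.37 SE; adjusted p = 0.16), and 4 H2B genes. These were Hist1h2bb (-1.32 ± 0.29), Hist1h2bh (-1.33 ± 0.35), Hist1h2bc (-1.31 ± 0.34) and Hist1h2bn (-1.04 ± 0.35), each without overlap and with adjusted p from 0.15 to 0.36. Hist1h2an (-1.52 ± 0.68) did not pass the p threshold. No H3 or H4 gene passed, although 9 of 9 Hist1 H3 genes were below 0, among them Hist1h3d (-1.22 ± 0.66), Hist1h3h (-1.19 ± 0.65) and Hist1h3i (-1.36 ± 0.61). In H4 6 of 13 genes were above 0, of which Hist1h4k was the highest (0.53 ± 0.34), and the lowest were Hist1h4a (-0.65 ± 0.46), Hist2h4 (-0.57 ± 0.22) and Hist1h4m (-0.44 ± 0.21). Outside Hist1, Hist2h2aa2 (-0.54 ± 0.11; adjusted p = 0.11), Hist2h2bb (-0.60 ± 0.16; adjusted p = 0.22) and Hist3h2a (-0.61 ± 0.17; adjusted p = 0.24) were lower in every Med23-deficient library than in any WT stage 3 library. Hist2h2ab (0.55 ± 0.68), Hist2h3b (-0.25 ± 0.43) and Hist3h2bb-ps (0.42 ± 0.65) overlapped.

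The genes around histone supply moved in different ways. Linker H1, which binds DNA between nucleosomes, is encoded in part among the same Hist1 genes, and 4 of 7 H1 genes fell from WT stage 2 to Med23-deficient cells. Hist1h1b fell from 41.87, 18.37 and 48.35 FPKM to 1.63, 0.42 and 0.07 (log2 change -4.44, adjusted p = 0.042) and Hist1h1a from 37.07, 14.48 and 23.77 to 5, 0.20 and 1.76 (-3.17, adjusted p = 0.17), with Hist1h1d (-1.55) and Hist1h1e (-1.06) behind them. H1f0, a linker histone made outside S phase, was lower in WT stage 3 than in WT stage 2 (-1.10, adjusted p = 0.042) and higher in Med23-deficient cells than in WT stage 3 (1.27, adjusted p = 0.027). None of the 8 replacement variants, which are not tied to replication, passed the fold rule in Med23-deficient cells, and their median was -0.47. Cenpa, the centromeric H3, differed from WT stage 2 by -0.87 in Med23-deficient cells and by -1.11 in WT stage 3, where it passed the rule, and between the latter groups by 0.24. Likewise none of 20 genes for histone gene transcription and 3′ processing passed in Med23-deficient cells, where Slbp, Npat and Casp8ap2 differed by -0.12, -0.38 and 0.22. Ccne1 and Ccne2, the cyclins E that drive entry into S phase, differed from WT stage 2 by -1.05 and -0.96 in Med23-deficient cells, missing the p and the fold threshold in turn, and by -1.06 and -1.28 in WT stage 3, where both passed. Of 17 histone chaperones 16 were below 0 in Med23-deficient cells. By adjusted p 1 fell, Nap1l1, a chaperone of H2A and H2B (-0.86, adjusted p = 0.030), and by the fold rule 1 fell, Chaf1a, a subunit of the assembly factor CAF-1 that places new H3 and H4 on replicated DNA (-1.35, adjusted p = 0.099), and it fell between WT stages too (-1.72, adjusted p = 0.079). Between WT stages 4 of the 7 H1 genes fell, and between Med23-deficient and WT stage 3 cells 1 fell, Hist1h1b (-1.89).

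Genes of the cell cycle moved beside the histones. Of 30 S phase and replication genes 4 fell in Med23-deficient cells (Rrm2 -1.68, Uhrf1 -1.64, Cdc45 -1.29 and Dut -1.05) and all 30 were below 0, with a median of -0.57. Their sum was 239.1 to 256.9 FPKM in WT stage 2, 148.1 to 182.7 in WT stage 3 and 138.3 to 150.5 in Med23-deficient cells. By adjusted p the replication factors Mcm3 (-0.84, adjusted p = 0.043) and Pcna (-0.92, adjusted p = 0.030) were lower too. Between WT stages 2 of them fell, Rrm2 (-1.88) and Uhrf1 (-1.54). Of 16 mitosis genes 9 fell in Med23-deficient cells and 11 in WT stage 3, led by Mki67 (-2.91 and -2.81) and Ccnb2 (-2.77 and -2.41). Their sum was 65.36 to 82.80 FPKM in WT stage 2, 6.06 to 18.19 in WT stage 3 and 9.55 to 11.59 in Med23-deficient cells. Between Med23-deficient and WT stage 3 cells the mitosis genes had a median of 0.04 and none passed. Only 2 of these 16 genes had a mean of at least 1 FPKM over the libraries compared, and genes near 0 can hardly pass. The S phase genes, 21 of 30 with such a mean, had a median of -0.12 and none passed. Of all 30, 21 were below 0 and 9 above, with Pcna the lowest (-0.71, adjusted p = 0.051). The core histones, 57 of 64 with such a mean, had the median of -0.44 given above. The part of cell cycling in the core histone differences was not tested.

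**Figure D5:**
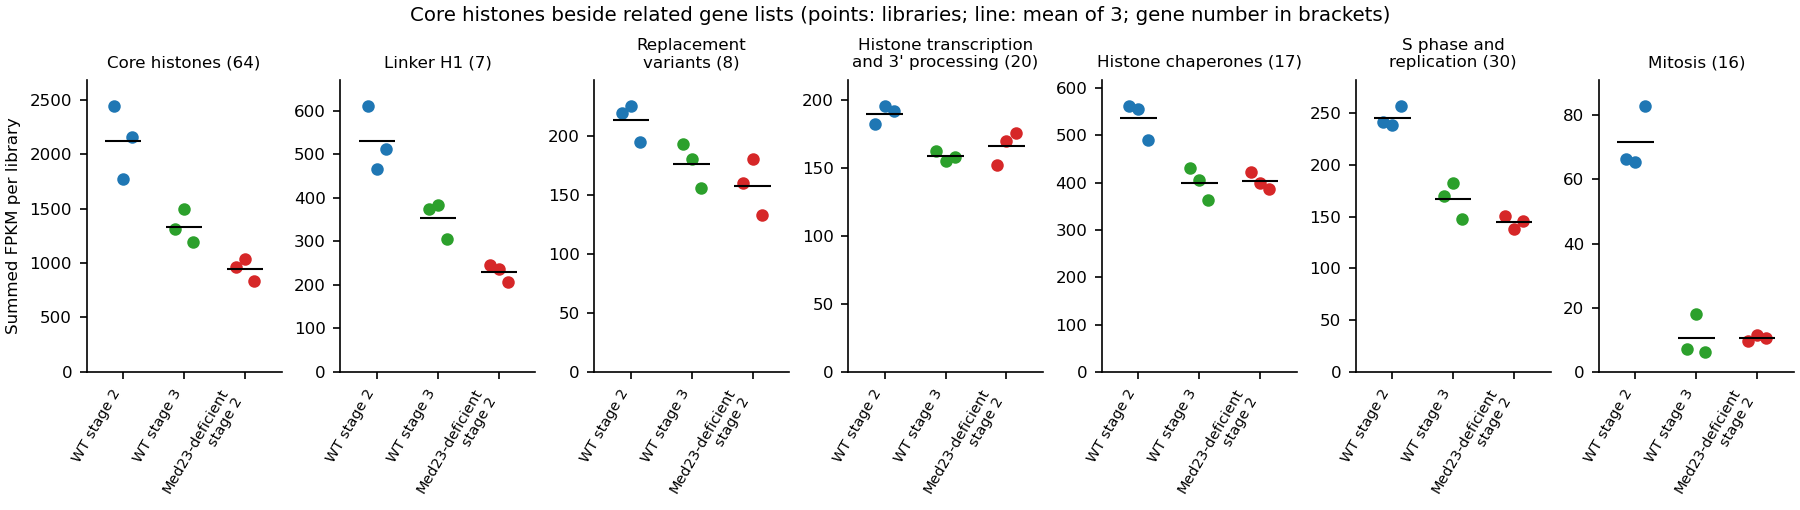
Summed FPKM per library (y axis, from 0, a separate scale in each panel) of the 64 core histone genes and of 6 related lists, with 1 point per library and a line at the mean of 3 libraries. Mitosis genes stand at 6.06 to 18.19 in WT stage 3 and 9.55 to 11.59 in Med23-deficient cells. Only 2 of the 16 had a mean of at least 1 FPKM over these groups. S phase genes stand at 148.1 to 182.7 and 138.3 to 150.5 in these groups, also with overlap. The core histone sums of the same groups, 1197 to 1495 and 835.1 to 1042, do not overlap.

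Markers of other cells were low. The 8 genes of double-positive thymocytes summed to 10.89 to 20.62 FPKM in WT stage 2, 3.33 to 5 in WT stage 3 and 12.27 to 22.72 in Med23-deficient cells, most of it Ccr9 in both stage 2 groups, with Rag1 at or below 1.58 and Ptcra at or below 0.08 in every library. The 3 listed B cell genes in the table summed to 4.53 to 6.76, 0.09 to 0.70 and 0 FPKM in the 3 groups, almost all of it Blk in WT stage 2, with Cd79a at 0 in 8 of 9 libraries. The 5 myeloid genes summed to 11.87 to 20.96, 9.79 to 13.17 and 10.01 to 12.77 FPKM, of which Cst3 was the largest term in every library (7.46 to 20.18), and the erythroid gene Hbb-bs was at or below 0.75. The part of these cells in the histone differences was not tested.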

How the data were processed

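RNA of sorted thymic iNKT cells was sequenced in 9 libraries, 3 per group. According to the study's methods and the submitters' processing notes, reads were trimmed with Trimmomatic 0.36, aligned to mm10 with HISAT2 and quantified with StringTie on GENCODE vM12 genes, with reads at no more than 2 loci kept. The deposited FPKM values of the authors, 1 column per library, were used as given. No read counts were used, so intervals from counting error could not be given and depth stays unknown; 3 libraries against 3 cannot give an exact permutation p below 0.10.

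From these, log2(FPKM + 1) of genes above 0 in at least 1 of 6 libraries entered limma 3.58.1 (R 4.3.3; lmFit, then eBayes with trend), only the groups compared being in each fit, with Benjamini-Hochberg adjustment over all genes tested. A fold change on this scale understates that of low genes. The fit was tested on simulated data. Sums, figures and sequence searches used Python 3.11.15, pandas 2.3.3, numpy 2.4.6 and matplotlib 3.10.9. Named with values were the 3 most abundant members of each class, the 3 that fell most and the 1 highest per class and comparison among those with a mean of at least 1 FPKM, members with an adjusted p of at most 0.05 and all outside Hist1; related genes past the thresholds were named up to 4 per list. The members and lists were chosen with earlier results of these data known. Alternatives were the pseudocount (0.1, 0.01), a minimum mean of 1 FPKM, 4 other scalings, a Ballgown-style model, no trend, all 9 libraries, a replicate block and leaving out each library. Windows and stem-loops came from GENCODE vM21 transcripts.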

Additional observations from a re-analysis of the deposited data

How the results depend on the processing

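Among the members named by the rule above, the ones refitted gene by gene, none that was called changed sign under any alternative run. Calls by fold and p were less stable. Over all genes and runs a call was lost 30 times and gained 14 times in the first comparison, with 684 unchanged. In the second it was lost 19 and gained 30 times, with 678 unchanged, and in the third lost 6 and gained 20 times, with 702 unchanged. By fold and p, 24 to 37 members fell from WT stage 2 to Med23-deficient cells (35 in the main analysis), and 27 to 38 when 1 library was left out. For WT stage 3 against stage 2 (17), the Ballgown-style model gave 4, and leaving out 1 library 9 to 25, 10 without replicate 1 of WT stage 2 and 9 without replicate 3 of WT stage 3. For Med23-deficient cells against WT stage 3 (6), either smaller pseudocount and the minimum mean of 1 FPKM gave 10, and leaving out 1 library 5 to 12, with 12 without WT stage 3 replicate 3.

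By adjusted p, the counts in these 3 comparisons (5, 1 and 2) became 0, 0 and 0 in the Ballgown-style model, and 0 or 1 in each when any 1 library was left out. In the first, the pseudocount of 0.01 gave 8, the minimum mean 20 and the fit on all 9 libraries 9. In the second, either smaller pseudocount gave 3, the minimum mean 7, all 9 libraries 4, and TPM without Gm23935, a common upper quartile and quantile normalization each 0. In the third, TPM without Gm23935 gave 1. Replicates share numbers, but the labels and methods do not say that a number marks a shared experiment or animal. Same-numbered libraries correlated at 0.00429 to 0.272 in their deviations, and not every library correlated best with its own number. The replicate 3 libraries did: they correlated at 0.144, 0.161 and 0.272 with each other and below 0 with all other numbers. With a replicate block the counts by adjusted p were 0, 0 and 0, and those by fold and p 34, 17 and 6.

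On the TPM scale the median of genes with a mean of at least 1 FPKM moved from -0.05 to -0.16 in the first comparison. The median of the members ranged from -1.70 to -1.16, from -0.97 to -0.71 and from -0.61 to -0.31. Depth being unknown, low members such as Hist1h2aa, Hist2h3c1 and Hist3h2ba cannot be resolved, and shared reads limit single copies more than class sums. Causes of these changes were not tested.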
